A study of Oryza sativa with 6 samples.

Results

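The rice genes described here are those of auxin signalling, transport and conjugation: the Aux/IAA repressors, the ARF transcription factors, the PIN exporters, the GH3 amido synthetases and the YUCCA monooxygenases. They were found by symbol or synonym in a RefSeq gene table, where a name, without a leading Os, had to be IAA, ARF, PIN, GH3 or YUCCA followed by its number. This gave 70 genes, of which 58 had a probe set among the 17905 annotated genes of the array. There were 28 Aux/IAA genes (26 with a probe set), 23 ARF genes (17), 9 PIN genes (5), 9 GH3 genes (9) and 1 YUCCA gene. The genes without a probe set in the annotation used were IAA11, IAA29, ARF5, ARF6, ARF8, ARF19, ARF21, ARF25, PIN1A, PIN1B, PIN1C and PIN5B, and they were not analysed here. Some symbols are shared in the table: IAA4 is also listed as IAA20, IAA13 as IAA1, ARF12 as ARF8, ARF18 as ARF10 and PIN3A as OSPIN10a.

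Auxin acts in the nucleus by joining TIR1/AFB receptors of a ubiquitin ligase to Aux/IAA proteins, which are then degraded. Aux/IAA proteins otherwise bind ARF factors on the promoters of auxin-responsive genes and recruit TOPLESS-type corepressors. Many Aux/IAA, GH3 and SAUR genes are themselves induced early by auxin, so the pathway limits its own output. PIN proteins carry auxin out of the cytoplasm, YUCCA enzymes make it from indole-3-pyruvate, and GH3 enzymes join it to amino acids.

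Transcript levels had been measured on the Affymetrix rice genome array in young leaves of 11 day-old seedlings of Minghui63, an indica variety. The 3 control arrays held RNA of untransformed plants. The 3 RNAi arrays held RNA of plants with a hairpin construct made from 412 bp of the OsSRT1 3' untranslated region, OsSRT1 being a sirtuin deacetylase, taken before the lesions of these plants appear. The titles number the RNAi samples as transgenic line LM1, LM2 and LM3 without saying whether these are separate lines, the sources used here do not give the promoter driving the hairpin, and no group with an unrelated construct was among the samples. The comparison addressed which transcripts differed in the RNAi leaves before visible cell death.

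No probe set was named OsSRT1, so the knockdown itself was not analysed here. Signals were scaled to a common trimmed mean of 500, and a log2 fold change is the difference, RNAi minus control, of means of log2(signal + 16), which understates changes of low genes. The array medians after scaling were 40.16 to 46.13. The leaf markers matched by name were high in all arrays (rbcS between 31273 and 37129). The 5 seed marker genes summed to 1712 to 1827 in the controls and 1545 to 1714 in the RNAi arrays, most of it from the glutelin gene GLUA2 (1243 to 1437), while GLUA1 was at 0.662 to 2.48. The 5 root marker genes summed to 6340.5 to 8218 in the controls and 5068 to 8758 in the RNAi arrays. Most of it came from HAK1 (3527 to 7087), which overlapped between groups. Lsi1 had 1573 to 1794 in the controls and 842 to 1396 in the RNAi arrays, with no overlap (limma adjusted p = 0.2). Lsi2 was at 1.16 to 9.49. Of 22 tested marker genes of leaf, root, shoot meristem, dividing cells and seed, 0 passed with limma, 1 had an unadjusted p under 0.05 and SAM called 0. Over all tested annotated genes 2.33% passed and 17.8% had an unadjusted p under 0.05 with limma. RNA came from whole leaf tissue, so fewer cells of a type and less RNA per cell cannot be told apart. All controls share 1 hybridization entry in the fluidics records and all RNAi arrays a later one, so this entry and the group cannot be told apart.

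The auxin genes did not move together. The Aux/IAA gene IAA31 rose by 1.91 on the log2 scale, IAA21 rose less, and IAA2 and the PIN gene PIN3A fell, while the other tested members did not pass. Of the 58 genes 49 passed the filter on low signal, and with limma 2 rose, 2 fell and 45 did not pass an adjusted p of 0.05. Over 14993 annotated genes with 1 probe set each, 2.33% passed, 0.994% upward and 1.34% downward, and over all 28597 tested probe sets 2.1% passed, 1.09% upward and 1.01% downward. The groups did not overlap at 14 of the 49 members, 6 with the RNAi values above and 8 below, where 25.2% of the annotated genes did not overlap, 13.2% above and 12% below. Over all tested probe sets 22.4% did not overlap, 12.5% above and 9.88% below. An unadjusted p under 0.05 was reached by 14 of the 49, beside 17.8% of the annotated genes and 15.6% of all tested probe sets. The median log2 fold change of the 49 members was 0.04, beside 0.02 for all annotated genes.

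**Figure D1:**
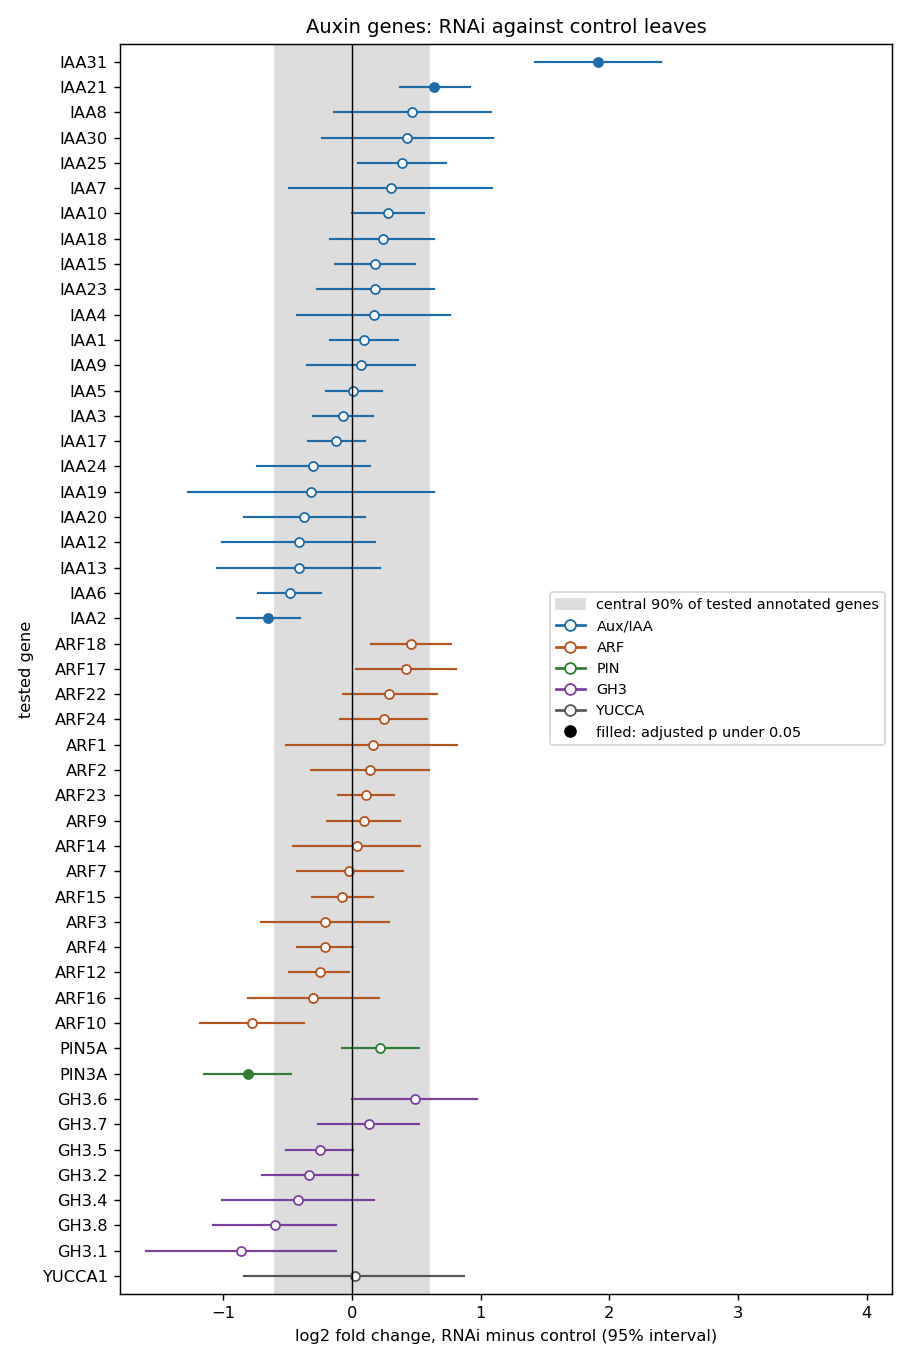
Log2 fold changes (RNAi minus control, horizontal axis) of the 49 tested auxin genes, ordered within class, with 95% intervals from the limma fit and filled points for an adjusted p under 0.05. The grey band spans the central 90% of tested annotated genes, from -0.6 to 0.6, and IAA31 lies far to its right at 1.91.

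Among the Aux/IAA genes, IAA31 and IAA21 rose, IAA2 fell, and 20 of 23 tested members did not pass. Of the annotated genes 2.33% passed, 0.994% upward and 1.34% downward. By mean level 14 were higher and 9 lower, the median log2 fold change was 0.09, and the members ranged from -0.65 to 1.91. IAA31 had signals of 449.8, 253 and 304 in the control replicates and 1120.0, 1283 and 1427 in the RNAi replicates. The lowest RNAi value lay above the highest control value by a factor larger than the spread within either group. The means were 336 ± 102 (SD, n = 3) and 1277 ± 154, and the log2 fold change was 1.91 ± 0.22 (SE; 95% interval 1.42 to 2.4, limma adjusted p = 0.00247). The call held when any 1 of the 6 arrays was dropped, and the log2 fold change ran from 1.74 to 2.13 and the adjusted p reached 0.017 at most. A second probe set annotated to IAA31 stayed between 4.07 and 12.9 in all arrays, below the level needed for the test. When the log2 signals of both probe sets were averaged, the log2 fold change was 1.05 and did not pass (adjusted p = 0.0594).

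IAA30 is the immediate neighbour of IAA31 in the gene table, with no gene between them. Its signals were 941, 581 and 927 in the controls and 755, 1004 and 1666 in the RNAi arrays. Here the groups overlapped, RNAi replicate 3 was high and RNAi replicate 1 lay within the controls. The log2 fold change of 0.43 ± 0.29 did not pass (95% interval -0.23 to 1.1, limma adjusted p = 0.524), and the difference between the neighbours was not tested. The other neighbour pair, IAA11 and IAA12, has a probe set for IAA12 only.

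IAA21 had signals of 3935, 3408 and 4220.2 in the controls and 5745, 5688 and 6652 in the RNAi arrays. All RNAi values lay above all control values, with a log2 fold change of 0.64 ± 0.12 (limma adjusted p = 0.0295). IAA2 had signals of 3993, 3528 and 3527 in the controls and 2280.0, 2403 and 2354 in the RNAi arrays. Its RNAi values were close together and all below the controls, with a log2 fold change of -0.65 ± 0.11 (limma adjusted p = 0.0181). Of the fits that dropped 1 array, both calls held only in the one without RNAi replicate 1. For IAA21 the adjusted p was 0.08, 0.149 and 0.0553 without control replicates 1, 2 and 3, and 0.0749 and 0.11 without RNAi replicates 2 and 3. For IAA2 it was 0.0683, 0.089, 0.0615, 0.0617 and 0.0671 in the same order. SAM, the method the submitters name, called IAA31 alone among the 49 members.

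IAA6, a gene tied to tillering and drought response in rice, came next in the class without passing. Its signals were 9753, 9157 and 8196 in the controls and 5862, 6848 and 6645 in the RNAi arrays. The groups did not overlap, and the log2 fold change was -0.48 ± 0.11 (limma adjusted p = 0.062). IAA10 and IAA25 also had all RNAi values above the controls, with log2 fold changes of 0.28 and 0.39 that did not pass (limma adjusted p = 0.317 and 0.261). IAA10 is known as a target of a rice dwarf virus protein that stabilises it. At the other end, some members were measured closely and differed little. IAA5 had a log2 fold change of 0.01 with a 95% interval of -0.2 to 0.23, IAA3 one of -0.07 (-0.3 to 0.16), IAA1 one of 0.09 (-0.17 to 0.36) and IAA17 one of -0.12 (-0.34 to 0.1). A second probe set of IAA3 differed, at 0.62 ± 0.21 with all RNAi values above the controls (limma adjusted p = 0.207). The IAA17 probe set is of a type that can detect more than 1 transcript. For 6 of the 23 tested Aux/IAA genes the whole interval lay within 0.5 of zero, and for 16 within 1.

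RNAi replicate 1 stood apart from replicates 2 and 3 at several Aux/IAA genes. IAA13, known from lateral root initiation, had 4336, 3599 and 4734 in the controls and 1863, 3904 and 4281 in the RNAi arrays. IAA24 had 2479.6 in RNAi replicate 1 and 3838 and 4232 in the other RNAi arrays, and IAA12 had 344 there and 684 and 602 in the others. IAA19 went the opposite way, with 1611 in RNAi replicate 1, 466 and 523 in the other RNAi arrays, and 767, 817 and 1242 in the controls. With all arrays the log2 fold changes were -0.41 for IAA13, -0.3 for IAA24, -0.41 for IAA12 and -0.32 for IAA19. Without RNAi replicate 1 they were -0.04, -0.06, -0.12 and -0.88, and none passed (limma adjusted p = 0.915, 0.822, 0.774 and 0.0762). RNAi replicate 1 was the array farthest from the mean of the other RNAi arrays at 13 of 23 Aux/IAA genes (56.5%), and at 46.4% of all tested probe sets. The summed signal of the 12 dividing-cell marker genes on the array was 1073 to 1193 in the controls, 1154 and 1167 in RNAi replicates 2 and 3, and 643 in RNAi replicate 1. The largest part came from PCNA, with 329.7 in RNAi replicate 1 and 560.1 to 644 in the other arrays. MCM2 to MCM7 and a CYCB1-1 gene were lowest there too, at low signals of 1.49 to 28.4. The other CYCB1-1 gene (54.9), CYCB2-1 (47.6) and CDKB2-1 (78.1) lay within the range of the other arrays, and CYCB2-2 (24.3) was highest there. The summed signal of the 5 leaf marker genes was also lowest in RNAi replicate 1, at 65149 against 76173 to 91377 in the other arrays. Most of that gap came from CAB2R, with 18862 there and 29289.8 to 36857 in the other arrays. PORB and an FBPase gene were also lowest there, by less (3588 and 4521). The leaf markers did not all follow, as rbcS (32286) and the other FBPase gene (5893) lay within the range of the other arrays. The part of these markers in the Aux/IAA values was not tested.

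**Figure D2:**
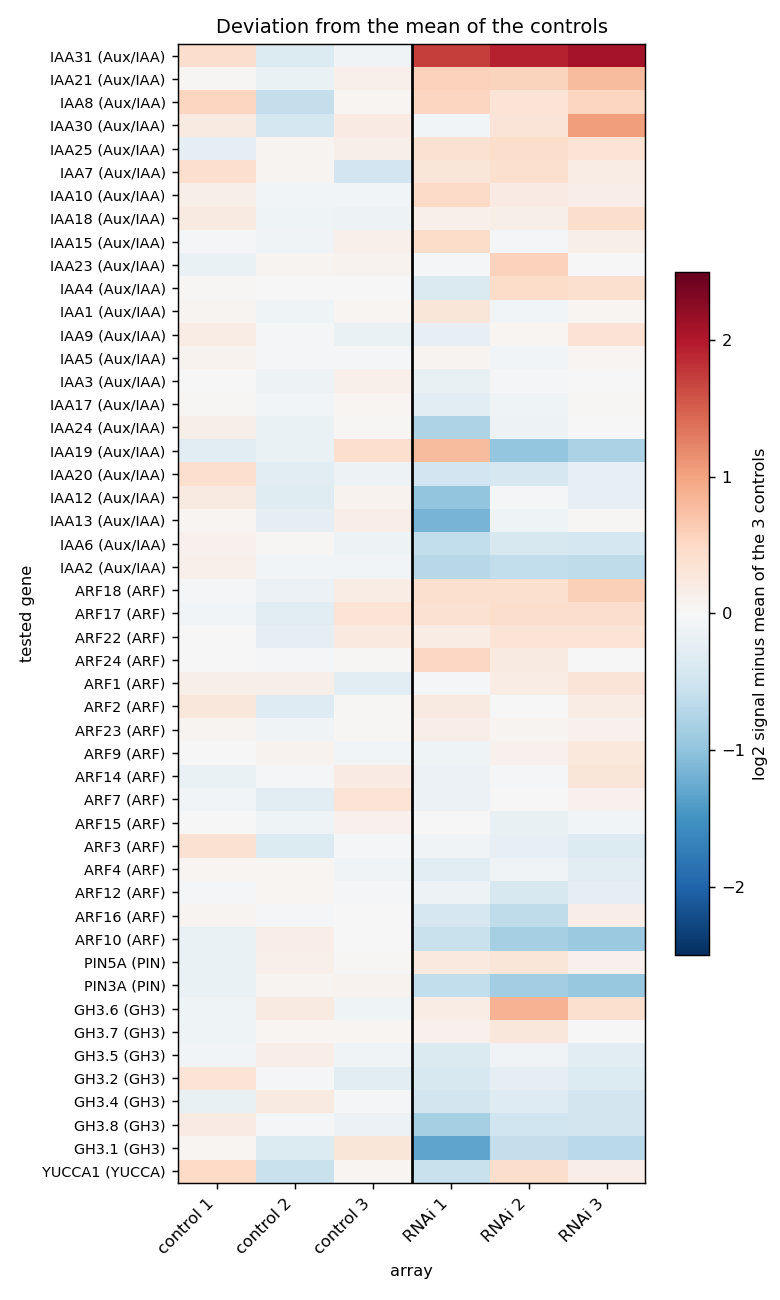
Log2 signal of the 49 tested auxin genes (rows) in each of the 6 arrays (columns), minus the mean of the 3 controls of that gene; red is higher and blue lower. IAA31 is red in all RNAi arrays, and IAA12, IAA13, IAA19 and IAA24 show RNAi replicate 1 apart from replicates 2 and 3.

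The remaining tested Aux/IAA genes overlapped between groups. IAA8 had a log2 fold change of 0.47 ± 0.27 (limma adjusted p = 0.448), IAA20 one of -0.37 ± 0.21 (0.432) and IAA7, near the lower limit of the test, one of 0.3 ± 0.35. IAA15, IAA18, IAA23 and IAA4 lay between 0.17 and 0.24, and IAA9 was at 0.07. Other tested probe sets gave 0.04 ± 0.22 for IAA23, and 0.25 ± 0.26 and 0.87 ± 0.46 for IAA4, and none of them passed. IAA23 is known for maintaining the quiescent centre of the root. IAA14, IAA16 and IAA26 were below the filter. Of these, IAA26 had 14.3, 23.3 and 38.8 in the controls and 11.3, 4.02 and 3.15 in the RNAi arrays, all RNAi values below the controls, and it was not tested.

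The ARF factors, which bind auxin-responsive promoters and activate or repress them, had 0 of 16 tested members past the threshold. Of the annotated genes 2.33% passed, so 0 calls among so few members says little about the class. With limma 4 of the 16 had an unadjusted p under 0.05, 2 higher and 2 lower, beside 17.8% of the annotated genes, and SAM called 0. The median log2 fold change was 0.06, with 9 members higher and 7 lower and a range of -0.78 to 0.46. ARF10 had the largest difference of the class. Its signals were 430.2, 547 and 483 in the controls and 323, 264 and 247 in the RNAi arrays, with no overlap. The log2 fold change was -0.78 ± 0.18 (limma adjusted p = 0.071), and without RNAi replicate 1 it was -0.88 and passed (adjusted p = 0.037). In the other fits that dropped 1 array ARF10 did not pass (adjusted p from 0.11 to 0.289). ARF18, which the gene table also lists under the name ARF10, went the other way. It had 1243, 1147 and 1445 in the controls and 1684, 1678 and 1927 in the RNAi arrays, again with no overlap, and a log2 fold change of 0.46 ± 0.14 (limma adjusted p = 0.141). ARF10, ARF18 and ARF22 belong to the ARF genes that the microRNA miR160 targets in rice, and ARF22 had 0.29 ± 0.16 (limma adjusted p = 0.429).

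ARF17 and ARF12 filled the rest of the order by p. ARF17 had 799, 682 and 1060.0 in the controls and 1087, 1138 and 1131 in the RNAi arrays, with a log2 fold change of 0.42 ± 0.17 (limma adjusted p = 0.288). The gap between its groups was small beside the spread of the controls. ARF12 had 6048, 6346 and 6012 in the controls and 5582, 4647 and 5250.2 in the RNAi arrays, with a log2 fold change of -0.25 ± 0.1 (limma adjusted p = 0.284). ARF2, ARF3, ARF14 and ARF15, the ETTIN-type genes cut by trans-acting short interfering RNAs, all overlapped between groups. Their log2 fold changes were 0.14, -0.21, 0.04 and -0.08, the last with a 95% interval of -0.31 to 0.16. ARF4 was at -0.21 on both of its probe sets, ARF16 at -0.3, ARF24 at 0.25, ARF1 at 0.16, ARF23 at 0.11, ARF9 at 0.09 and ARF7 at -0.02. For 15 of the 16 tested ARF genes the 95% interval lay within 1 of zero. ARF13 was below the filter, with 15.5 to 35.9 over the arrays.

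Among the PIN exporters PIN3A fell and PIN5A did not pass. PIN3A, also called OsPIN3t, is a plasma membrane exporter known from root growth and drought response in rice. Its signals were 1065, 1252 and 1279 in the controls and 777, 649 and 609 in the RNAi arrays. The groups did not overlap, and RNAi replicate 1 was the highest of the RNAi arrays. The means were 1199 ± 117 (SD, n = 3) and 678 ± 88, with a log2 fold change of -0.81 ± 0.15 (95% interval -1.15 to -0.47, limma adjusted p = 0.0314). The name of this probe set marks probes that may also read other sequences. A second probe set of the gene, without that mark, had 522, 627 and 618 in the controls and 325, 289 and 276 in the RNAi arrays. It gave a log2 fold change of -0.95 ± 0.16 and passed as well (limma adjusted p = 0.0203). On the first probe set the call was lost without control replicates 1, 2 and 3 (adjusted p = 0.0564, 0.169 and 0.123) and without RNAi replicates 2 and 3 (0.104 and 0.113), and held without RNAi replicate 1 (0.0143).

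PIN5A, of the short PIN type that sits in internal membranes, had 1204, 1494 and 1391 in the controls and 1604, 1689 and 1466 in the RNAi arrays. The groups overlapped, with a log2 fold change of 0.22 ± 0.13 (95% interval -0.08 to 0.52, limma adjusted p = 0.472). PIN2, PIN5C and PIN9 were below the filter in these leaves and were not tested. PIN2, known from root gravitropism, had no array above 20.3, PIN5C none above 29.2 and PIN9 none above 45.9. YUCCA1, the only YUCCA gene matched, had 102, 41.1 and 71 in the controls and 41, 96.8 and 77.7 in the RNAi arrays. Its log2 fold change of 0.02 ± 0.38 had a wide interval, from -0.84 to 0.87, and smaller differences were not detectable with these arrays. The name of this YUCCA1 probe set, too, marks probes that may also read other sequences. A second probe set of the gene stayed between 0.889 and 15.1 and was below the filter.

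**Figure D3:**
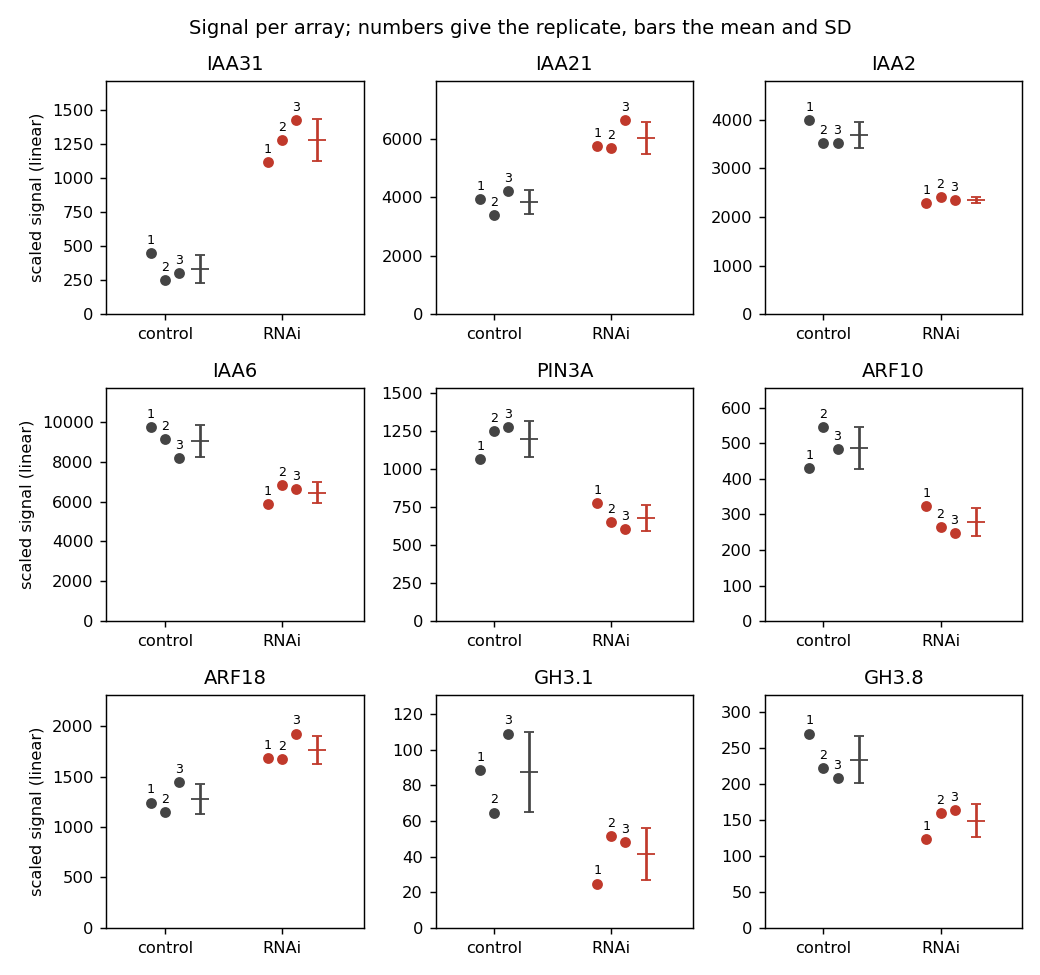
Scaled signal on a linear axis from 0 for 9 auxin genes, with 1 point per array numbered by replicate and the mean ± SD of 3 beside it. All 9 were picked from the 14 of 49 tested members whose groups do not overlap, where 25.2% of the annotated genes did not overlap. IAA31, IAA21, IAA2 and PIN3A are the genes past the threshold.

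The GH3 genes had 0 of 7 tested members past the threshold, with 5 lower and 2 higher by mean level and a median log2 fold change of -0.33. Among all annotated genes 2.33% passed and 47.5% were lower. With limma 3 of the 7 had an unadjusted p under 0.05, 1 higher and 2 lower, beside 17.8% of the annotated genes, and SAM called 0. GH3.1 and GH3.8, which join indole-3-acetic acid to amino acids in rice, had all RNAi values below the controls. GH3.1 had 88.6, 64.7 and 109 in the controls and 24.9, 51.4 and 48 in the RNAi arrays. This gave a log2 fold change of -0.86 ± 0.33 (limma adjusted p = 0.248). GH3.8 had 270.3, 223 and 208 in the controls and 123, 160.1 and 164 in the RNAi arrays, which came to -0.6 ± 0.21 on the log2 scale (limma adjusted p = 0.214). RNAi replicate 1 was the lowest array for both. GH3.4 likewise did not overlap, at -0.42 ± 0.26, on signals of 57.1 to 102. This made 3 of 7 members with all RNAi values below the controls and 0 above, beside 12% and 13.2% of the annotated genes. GH3.2, another auxin-conjugating member, had 2790.4, 2127 and 1800.4 in the controls and 1667, 1860.1 and 1739 in the RNAi arrays, where control replicate 3 lay within the RNAi range (log2 fold change -0.33 ± 0.16, limma adjusted p = 0.386).

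GH3.5, also named JAR1, differs from these in forming the jasmonate conjugate that activates jasmonate signalling. It had 8912, 10577 and 8799 in the controls and 7284, 8835 and 7728 in the RNAi arrays, with a log2 fold change of -0.25 ± 0.11 (limma adjusted p = 0.349). Control replicates 1 and 3 and RNAi replicate 2 lay close together, so the groups overlapped. GH3.6 pointed up, with 300.2, 381 and 298 in the controls and 371, 606 and 436 in the RNAi arrays, a difference of 0.49 ± 0.21 on the log2 scale (limma adjusted p = 0.318). GH3.7 was at 0.13 ± 0.17. GH3.9 and GH3.11 were below the filter. No GH3 gene had a 95% interval within 0.5 of zero.

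Across classes, the median log2 fold changes were 0.09 for 23 Aux/IAA genes, 0.06 for 16 ARF genes, -0.29 for the pair of PIN genes and -0.33 for 7 GH3 genes. The SD of the class medians between arrays of a group was 0.08 for Aux/IAA, ARF and GH3 and 0.13 for PIN. Read array by array against the mean of the controls, the GH3 median was -0.4, -0.24 and -0.34 in RNAi replicates 1, 2 and 3, and -0.08, 0.05 and -0.09 in the controls. The Aux/IAA median was -0.02, -0.02 and 0.05 in the RNAi arrays and 0.11, -0.1 and 0.04 in the controls. The PIN median, over a pair of genes, was -0.19, -0.28 and -0.42 in the RNAi arrays and -0.17, 0.1 and 0.07 in the controls. So the GH3 and PIN medians of the RNAi arrays lay below those of the controls, for PIN by a narrow margin, and the Aux/IAA medians overlapped. The ARF medians overlapped as well, at -0.07, 0 and 0.14 in the RNAi arrays and -0.01, -0.07 and 0.03 in the controls. On the signals as deposited, where the median of all tested probe sets was itself -0.52, the class medians were -0.54, -0.53, -0.90 and -0.88, so the Aux/IAA and ARF medians turned negative. Scaling multiplies each array by 1 factor, which shifts all fold changes nearly alike. That PIN and GH3 stayed below Aux/IAA and ARF is therefore no separate check of their order. The difference between classes was not tested.

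Of the 12 members with more than 1 probe set, 9 further probe sets could be tested. The log2 fold change had the same sign as on the chosen probe set at 8 of them. The exception was IAA3, with -0.07 on the chosen probe set and 0.62 ± 0.21 on the other (limma adjusted p = 0.207), where the RNAi values of 257, 212 and 208 lay above the controls of 114, 148 and 163.

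Other genes of the pathway were matched by name: 20 genes, of which 19 had a probe set and 17 were tested. No receptor, influx carrier or ABCB exporter gene was matched, so those steps were not analysed here. With limma 0 of the 17 passed, 6 had an unadjusted p under 0.05, 4 higher and 2 lower, and SAM called 0. Of the annotated genes 2.33% passed, and an unadjusted p under 0.05 was reached by 17.8% of them and by 15.6% of all tested probe sets. The median log2 fold change was -0.11. ASB1, the anthranilate synthase beta subunit of the tryptophan route from which auxin is made, came closest to the threshold. It had 10977, 11549 and 10162 in the controls and 8239, 7809.8 and 6436 in the RNAi arrays, all below the controls. The log2 fold change was -0.54 ± 0.12 (limma adjusted p = 0.0513). Without RNAi replicate 1 the adjusted p was 0.0263, and in the other fits that dropped 1 array it was 0.103 to 0.235. ASA1, the alpha subunit of the same enzyme, had 0.57 ± 0.25 (limma adjusted p = 0.311). FIB, the tryptophan aminotransferase that supplies YUCCA enzymes, had 2306, 1662 and 2513 in the controls and 1937, 1974 and 2299 in the RNAi arrays, fully overlapping, with a log2 fold change of -0.04 ± 0.17.

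The response gene SAUR39, known in rice as a brake on auxin synthesis and transport, had 255, 366 and 593 in the controls and 784, 1008 and 767 in the RNAi arrays. All RNAi values lay above the controls, among which control replicate 3 was highest. The log2 fold change of 1.12 ± 0.28 did not pass (limma adjusted p = 0.0876), and without control replicate 3 it was 1.42 and passed (0.028). In the other fits that dropped 1 array SAUR39 did not pass (adjusted p from 0.0936 to 0.286). ARGOS, an organ size gene, had 0.43 ± 0.17 (limma adjusted p = 0.278), with RNAi replicate 3 inside the control range. The corepressor genes of the TOPLESS type differed from each other. TPR2 had 5242, 5292 and 5895 in the controls and 2750.4, 4133 and 4232 in the RNAi arrays, RNAi replicate 1 being the lowest. The log2 fold change was -0.59 ± 0.17 (limma adjusted p = 0.131). Its probe set, too, is of the type that can detect more than 1 transcript. TPR3 stayed between 5546 and 6688, with 0.12 ± 0.1 (limma adjusted p = 0.611).

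Among genes that change the auxin pool, the amidohydrolase genes ILL1 and ILL2, whose family frees auxin from its conjugates, had 0.31 ± 0.13 and -0.43 ± 0.23 (limma adjusted p = 0.307 and 0.41). The dioxygenase gene DAO, which oxidises indole-3-acetic acid irreversibly, had 4726, 3356 and 2931 in the controls and 2267, 2472 and 3648 in the RNAi arrays. The groups overlapped and the log2 fold change was -0.39 ± 0.22 (limma adjusted p = 0.434). PID, the kinase that acts on PIN proteins, had 0.26 ± 0.36 on signals of 22.8 to 71.8, and SGT1, a cochaperone of the ubiquitin ligase, had -0.16 ± 0.14 (limma adjusted p = 0.772 and 0.621).

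**Figure D4:**
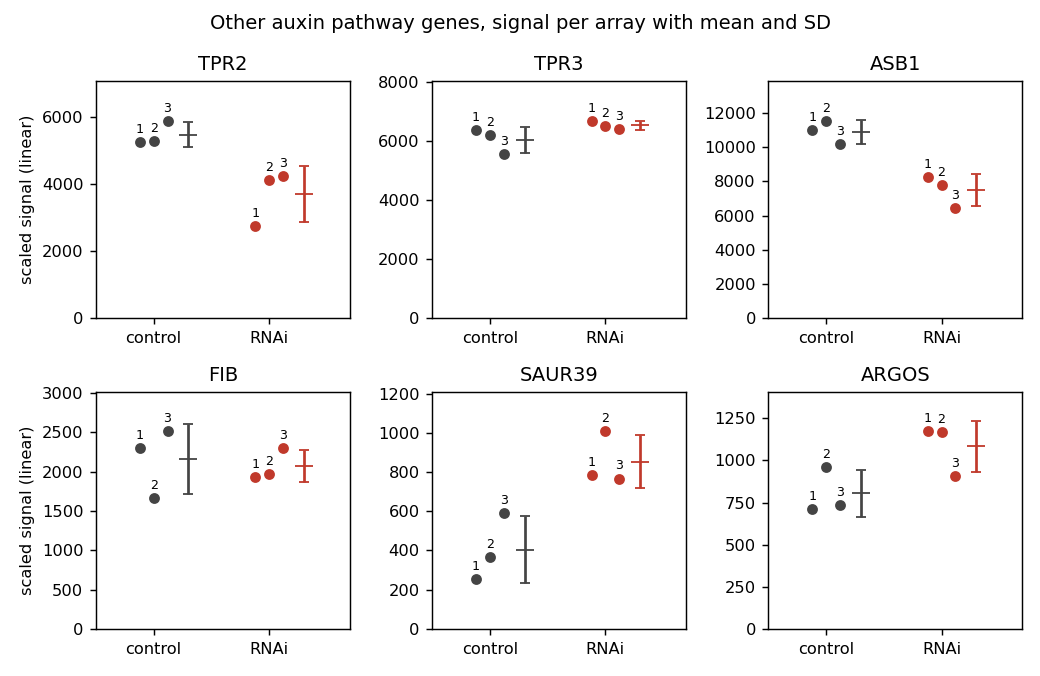
Scaled signal on a linear axis from 0 for 6 other auxin pathway genes, with 1 point per array numbered by replicate and the mean ± SD of 3 beside it. The groups are apart for TPR2, TPR3, ASB1 and SAUR39 and overlap for FIB and ARGOS, where 25.2% of the annotated genes did not overlap. The 6 genes were picked from the 17 tested, and none of them passed the adjusted threshold.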

How the data were processed

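For every array the authors deposited a linear intensity of each probe set, and the submitters' processing notes name GCOS 1.2. The probe summary and scaling used are not stated in the labels. Control replicate 3 was deposited at a 2% trimmed mean of 500.1 and the other arrays at 99.86 to 117.8. Each array was scaled to 500, 16 was added and log2 taken. Control and reporter probe sets (123 and 64 of 57381) were not tested, and the lower 50% of the other 57194 by mean log2 signal was left out, with a mean log2 value of 5.7 (a signal of 36.1) as the lowest kept. RNAi and control were tested on the 28597 left by limma 3.58.1, run in R 4.3.3 (two-sided, trended eBayes, with p-values adjusted over all of them by Benjamini-Hochberg). The same code was tested on simulated data. The design text calls the samples biological repeats without naming plants or cultures, so the p-values reflect only the spread among these arrays, whose number limits precision.

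A gene was represented by the brightest of its probe sets on average, named through the platform annotation (22436 probe sets with 1 gene, 95 with several) and RefSeq's table of assembly ASM3414082v1, used for names and neighbours. The members and lists were chosen with earlier results of these data known. Named by rule were all members past the threshold and, in each class, the 4 with the smallest adjusted p and the 2 largest changes; of other pathway genes, the 2 with the smallest adjusted p in each role. Other genes with values were chosen after those were seen. By their synonyms, 4 matches of the pathway list (LAX1, LAX2, CRL4, ASP1) were other genes and were left out. Alternatives were the scaling, pseudocount, filter, replicate number as a block, leaving out arrays, eBayes without a trend, SAM with all 20 label orders, leaving out probe sets that read several transcripts, and averaging probe sets.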

Additional observations from a re-analysis of the deposited data

How the results depend on the processing

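Of the 17 alternatives, the calls of IAA2, IAA21 and PIN3A were each lost in 9 and that of IAA31 in 2. The sign of each of these 4 genes held in all of them, but this was no separate check. Several alternatives reuse the same fold change. The groups of these genes do not overlap, so dropping 1 array could not reverse the sign. On the signals as deposited, where control replicate 3 is on another scale and the median of all tested probe sets was -0.52, limma called 37 probe sets (64.9% higher, against 51.9% after scaling) and 0 auxin genes, with 0 at an unadjusted p under 0.05 (SAM, run after scaling, called 1). IAA31 was then at 1.18 and IAA21 at 0.01, and the class medians were -0.54 for Aux/IAA, -0.53 for ARF, -0.90 for PIN and -0.88 for GH3. ARF17, ARF18, PIN5A and GH3.6, higher in RNAi after scaling, were at -0.22, -0.18, -0.41 and -0.14. Auxin genes past the threshold numbered 4 of the 601 called probe sets with all arrays and 1 to 5 without 1 array, when 233 (without control replicate 2) to 902 (without RNAi replicate 1) probe sets were called. They numbered 1 with eBayes without a trend (303 probe sets) and 1 with SAM, in each case IAA31. With no filter 394 probe sets passed. The PIN and GH3 medians, over more members, were -0.06 and -0.25 with no filter and -0.02 and -0.25 with the lower 25% left out. Leaving out 1 array moved the ARF median between -0.04 and 0.09 and the GH3 median between -0.44 and -0.28. With the replicate number as a block 2 auxin genes passed, IAA21 and IAA31. Deviations of same-numbered arrays correlated at -0.045, 0.0084 and 0.0021, and those of differently numbered arrays at -0.057 to 0.053. So no pairing by number was seen, though so few arrays cannot show that none existed. The cause of these moves was not tested. Standard errors of the members ran from 0.1 to 0.42, the highest at IAA19, where RNAi replicate 1 stood apart, and YUCCA1, a member of low signal, had 0.38.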
